A study of Mus musculus with 12 samples.

Results

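The genes described here stood out on 2 of 12 liver arrays, those labelled K289R 1 and K289R 3, through high levels of transcripts for digestive enzymes. A row of the array table was counted as a member if it had a gene symbol, measured at least 30 on both arrays, and was on both at least 1.5 times the highest value among the other 10 arrays. Of 23410 rows with a gene symbol, 31 met this rule. Of these, 23 carry 1 symbol each and stand for 23 genes, and 8 list several near-identical genes. The members were thus selected on the intensities that are reported here, so these values describe them, and what is later given of them from the fit of the genotypes is a description too.

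The 6 K289R mice carry a knock-in that changes a lysine of the nuclear receptor LRH-1 (gene Nr5a2) to arginine, and the 6 WT mice carry the unchanged receptor. All were males of the C57BL/6J background, fasted for 24 h and refed for 6 h, and the titles call the arrays of a genotype biological replicates. The labels used here give no age and do not say how the allele was made. Values are intensities of probe sets in linear units. The array medians ran from 26.8 to 29.2, and hepatocyte transcripts were bright on every array: albumin (Alb) measured 7384 on K289R 1 and 6826 on K289R 3, against 6644 to 7678 in WT. Precision is limited by the number of arrays.

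Acinar cells of the exocrine pancreas make the enzymes that digest protein, fat, starch and nucleic acids in the gut. They store them in zymogen granules, most proteases as inactive precursors, and release them into the pancreatic duct after a meal. Transcription of the enzyme genes depends on PTF1, a complex of Ptf1a, an E protein and Rbpjl, and LRH-1 itself is active in these cells as well as in liver.

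The start regions of 17 of the 23 genes were found in the RefSeq promoter table (build GRCm38.p6, 250 bases before and 50 after the start). Printed below are those of Cpa1, Ctrb1, Cpb1 and Cel, the genes taken as markers of the members, and of Cela1. The sequences show how differently genes with the same pattern over the arrays are built at their start. Capitals mark CACCTG, the E-box part of a PTF1 site, and TTTCCC, the part bound by proteins of the RBPJ family, on either strand.
Cpa1, chr6:30638968-30639267, + strand: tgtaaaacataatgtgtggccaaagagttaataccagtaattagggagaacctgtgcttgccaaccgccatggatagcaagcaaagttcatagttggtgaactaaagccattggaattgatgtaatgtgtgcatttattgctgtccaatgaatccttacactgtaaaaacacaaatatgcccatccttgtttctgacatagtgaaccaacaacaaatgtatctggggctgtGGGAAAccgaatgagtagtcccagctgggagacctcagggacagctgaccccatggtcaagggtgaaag
Ctrb1, chr8:111690961-111691260, - strand: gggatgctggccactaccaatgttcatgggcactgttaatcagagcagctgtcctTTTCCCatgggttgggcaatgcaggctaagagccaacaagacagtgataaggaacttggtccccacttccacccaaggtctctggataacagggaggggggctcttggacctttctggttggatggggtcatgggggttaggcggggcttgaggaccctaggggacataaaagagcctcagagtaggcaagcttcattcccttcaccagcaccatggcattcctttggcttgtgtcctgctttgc
Cpb1, chr3:20275684-20275983, - strand: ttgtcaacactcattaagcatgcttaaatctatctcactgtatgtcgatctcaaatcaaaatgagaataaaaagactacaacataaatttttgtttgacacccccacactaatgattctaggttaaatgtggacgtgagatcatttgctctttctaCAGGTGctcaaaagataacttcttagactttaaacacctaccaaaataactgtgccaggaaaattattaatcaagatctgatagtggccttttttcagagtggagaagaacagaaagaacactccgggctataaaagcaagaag
Cel, chr2:28563354-28563653, - strand: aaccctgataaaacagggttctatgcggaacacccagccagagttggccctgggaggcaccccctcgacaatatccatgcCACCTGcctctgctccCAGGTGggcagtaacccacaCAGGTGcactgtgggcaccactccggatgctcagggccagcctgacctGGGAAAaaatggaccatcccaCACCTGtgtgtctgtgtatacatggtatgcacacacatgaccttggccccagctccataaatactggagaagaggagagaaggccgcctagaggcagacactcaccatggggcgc
Cela1, chr15:100687871-100688170, - strand: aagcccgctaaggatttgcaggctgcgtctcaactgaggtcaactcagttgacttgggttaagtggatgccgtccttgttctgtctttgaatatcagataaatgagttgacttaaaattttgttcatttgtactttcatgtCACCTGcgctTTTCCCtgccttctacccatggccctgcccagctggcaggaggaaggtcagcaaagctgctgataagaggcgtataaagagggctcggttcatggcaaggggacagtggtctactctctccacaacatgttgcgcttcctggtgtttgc

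CACCTG was in 9 of the 17 start regions (52.9%), and in 20.2% of all 32851 regions in the table. TTTCCC was in 7 of 17 (41.2%) and in 25.2% of all. Both within 30 bases of each other were found at Cel, with 15 bases between them, and at Cela1, with 4, and in 1.12% of all regions. The Cela1 start region holds them as one run of CACCTG, 4 bases and TTTCCC, whereas Cpa1 and Ctrb1 have TTTCCC alone and Cpb1 has CACCTG alone. The LRH-1 motif CAAGGNCA was in 7 of 17 (41.2%), at Cel, Cela3b, Pla2g1b, Prss2, Sycn, Ctrl and Rnase1, and in 6.71% of all regions. TATAAA was in 6 of 17 (35.3%) and in 13.6% of all. All motifs were searched on both strands, and matches of different motifs overlapped in 0 of the 17 regions. A match is only a run of letters and was not tested for binding.

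All 23 genes were on lists of pancreatic acinar genes, and none of the 187 measured genes that stood only on 16 other lists was a member. The lists were drawn up with earlier results of these arrays known, so these counts are no separate support for a tissue. The member Zg16 was on the small intestine list as well as on an acinar list. Across the 23 genes the summed intensity was 9430 on K289R 1 and 14548 on K289R 3. It was 456 to 546 on the other 4 K289R arrays, and 451 to 545 on the 6 WT arrays. That the 2 arrays lay apart in this sum follows from the rule. The other K289R arrays and the WT arrays, which the rule does not set apart, covered nearly the same range. The measured ratio of the lower of the 2 arrays to the highest of the other 10 ran from 1.64 to 48.2, with a median of 13.5. For 12 of the 23 genes even the highest of the other 10 values lay below the lowest array median, where signal cannot be told from background, and for such genes the ratio is a lower bound.

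**Figure D1:**
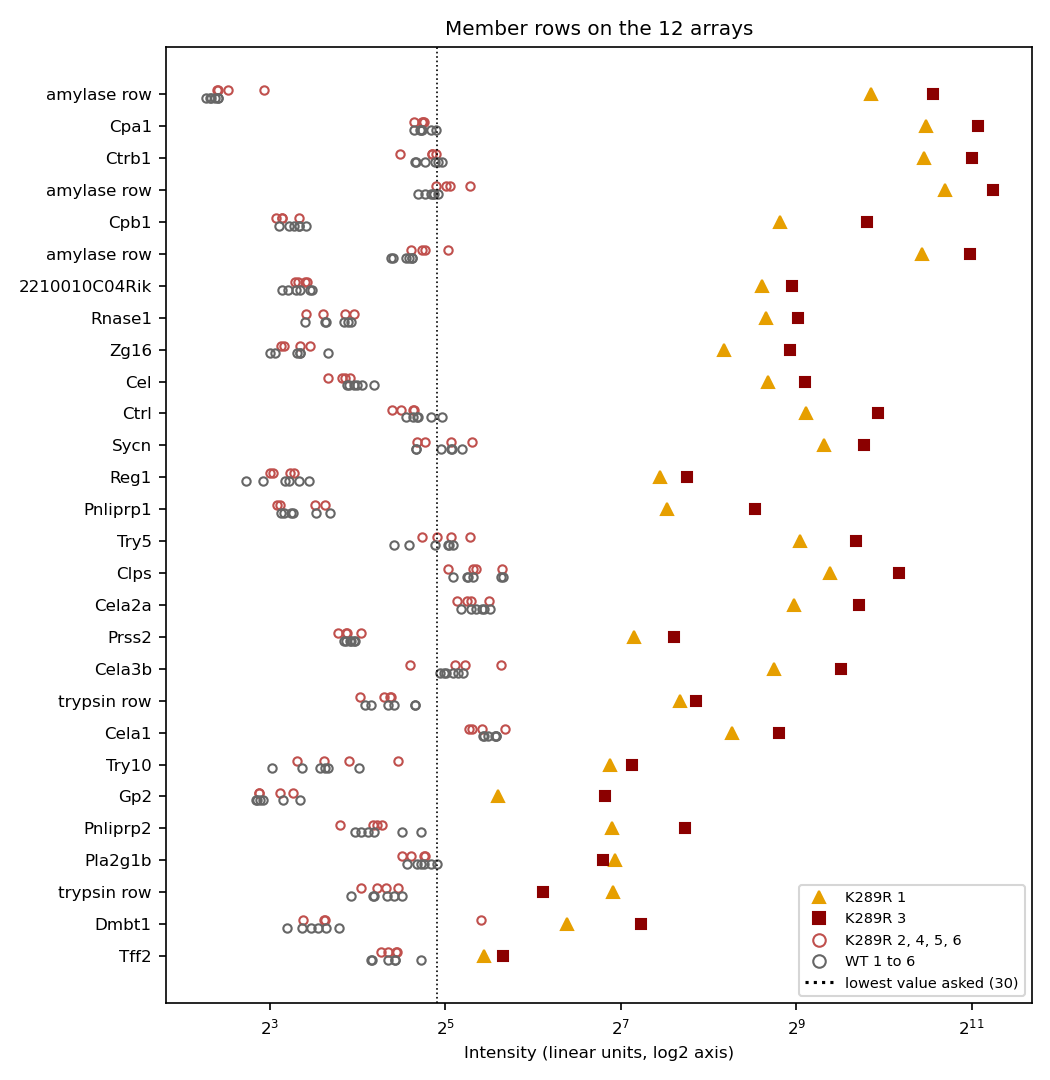
Intensity of the member rows (log2 axis, linear units) on the 12 arrays, 1 line per gene or per set of rows with identical values, ordered by fold. Triangles and squares are K289R 1 and 3, open circles the other K289R and the WT arrays, and the dotted line is the lowest value asked of both arrays (30). In every line both K289R 1 and 3 lie right of all other arrays, by 1.97-fold for Dmbt1 and at least 1.64-fold for Tff2 at the lower end.

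Carboxypeptidases, which cut amino acids from the end of a peptide chain, were among the members with the largest folds. Cpa1 (probe set 10537051) measured 1431 on K289R 1 and 2151 on K289R 3, with 24.9 to 26.9 on the other K289R arrays and 24.9 to 29.7 (median 26.5) in WT. The lower array was 48.2-fold above the highest of the other 10. Cpb1 (probe set 10497463) measured 449 and 892 on K289R 1 and 3, with 8.41 to 10.02 on the other K289R arrays and 8.57 to 10.6 (median 9.87) in WT, at least 42.4-fold. For both genes the other 4 K289R arrays overlapped WT.

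Chymotrypsinogens cut after large aromatic residues once they are activated by trypsin. Ctrb1 (probe set 10581882) measured 1399 and 2051 on K289R 1 and 3, with 22.3 to 29.7 on the other K289R arrays and 25.2 to 31.2 (median 28.4) in WT, 44.8-fold. The related Ctrl measured 551 and 974.5 on these arrays, with 21.0 to 25.0 on the other K289R arrays and 23.5 to 31.1 in WT. Ctrc, which the RefSeq table lists as a transcribed pseudogene in this strain, did not share the pattern. Its values were 40.3 and 45.6 on K289R 1 and 3, inside the 35.7 to 47.1 of WT.

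The elastases Cela1, Cela2a and Cela3b, serine proteases related to chymotrypsin, had folds of 6.00, 11.0 and 8.63. Cela2a measured 503 and 841 on K289R 1 and 3, with 35.1 to 45.1 on the other K289R arrays and 36.3 to 45.6 in WT. Cela3b measured 429 and 729, with 24.2 to 49.7 on the other K289R arrays and 30.5 to 36.7 in WT. Cela1 was the elastase with the smallest fold, at 307 and 448, with 38.4 to 51.2 on the other K289R arrays and 43.2 to 47.9 in WT. The probe set of Cela3a was not a member: it measured 81.5 and 113 on K289R 1 and 3 and reached 106 on K289R 6.

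Trypsinogens start the cascade that activates the other zymogens. Try5 measured 528 and 820 on K289R 1 and 3, with 26.7 to 38.9 on the other K289R arrays and 21.3 to 33.8 in WT. Prss2 measured 142 and 194, with 13.7 to 16.5 on the other K289R arrays and 14.3 to 15.7 in WT, at least 8.65-fold. Try10 measured 117 and 139, with 9.93 to 22.0 on the other K289R arrays and 8.09 to 16.2 in WT. The gene 2210010C04Rik, which lies in the same cluster with 1 protein-coding gene between it and Try5, measured 390 and 496 on K289R 1 and 3. It stayed at 9.73 to 10.7 on the other K289R arrays and 8.77 to 11.2 in WT. Because these genes resemble each other closely, reads of 1 transcript by probes of another cannot be told apart here.

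2 further rows list Prss1 and Prss3 together with related genes. The first measured 204 and 231 on K289R 1 and 3 and at most 25.2 on the other arrays. The second measured 120 on K289R 1 and 68.9 on K289R 3, and at most 22.7 elsewhere. The single-gene row of Prss3, which is no member, was likewise higher on K289R 1, at 72.6 against 18.2 on K289R 3, with 9.78 to 11.2 on the other K289R arrays and 11.3 to 14.5 in WT. Gm5771 measured 63.8 on K289R 1 and 37.7 on K289R 3. The second row, Prss3 and Gm5771 were thus higher on K289R 1, whereas the first row, Try5, Prss2 and Try10 were higher on K289R 3.

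Genes for fat digestion included the carboxyl ester lipase Cel, which bile salts activate. Cel (probe set 10481278) measured 410 and 550 on K289R 1 and 3, with 12.6 to 15.04 on the other K289R arrays and 14.7 to 18.2 (median 15.7) in WT, at least 22.5-fold. Colipase (Clps), which anchors pancreatic lipase to fat droplets, measured 666 and 1155, with 32.7 to 50.02 on the other K289R arrays and 34.0 to 50.4 in WT. The lipase-related proteins Pnliprp1 and Pnliprp2 measured 185 and 120 on K289R 1 and 370 and 212 on K289R 3, and at most 12.8 and 26.4 elsewhere. Pla2g1b, the phospholipase A2 of pancreatic juice, measured 122 on K289R 1 and 111 on K289R 3, with 22.7 to 27.2 on the other K289R arrays and 23.5 to 29.9 in WT. It was the only one of the 23 genes that was lower on K289R 3 than on K289R 1.

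Starch is digested by amylase, and 6 member rows list the pancreatic amylase genes Amy2a2, Amy2b and Amy2a5 together. Since 4 of the rows hold identical values, they give 3 separate readings. The row with the largest fold measured 926 on K289R 1 and 1508 on K289R 3, with 5.27 to 7.65 on the other K289R arrays and 4.81 to 5.31 in WT, at least 121-fold. The 4 identical rows measured 1662 and 2416 on K289R 1 and 3, with 29.6 to 39.0 on the other K289R arrays and 25.7 to 30.05 in WT. In all 3 readings the highest of the other 10 arrays was K289R 2, which lay above every WT array. Amy1, the amylase that liver and salivary gland also make, has a row of its own and showed no such step. It measured 459 and 473 on K289R 1 and 3, 397 to 476 on the other K289R arrays and 265 to 396 in WT. Its log2 difference between K289R and WT was 0.39 (limma adjusted p = 0.0596).

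Rnase1, the ribonuclease of pancreatic juice, measured 403 and 520 on K289R 1 and 3, with 10.6 to 15.5 on the other K289R arrays and 10.5 to 15.1 in WT, at least 26.0-fold. Proteins of the zymogen granule followed. Syncollin (Sycn), which lines the granule membrane, measured 637 and 876, with 25.6 to 39.6 on the other K289R arrays and 25.3 to 36.5 in WT. Zg16, a lectin of the granule that goblet cells of the gut also make, measured 289.01 and 488 and at most 12.6 elsewhere. Gp2, the main glycoprotein of the granule membrane, measured 48.3 and 113 and at most 10.1 elsewhere. The secreted lectin Reg1 measured 175 and 215 and at most 10.8 elsewhere.

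Dmbt1 and Tff2 had the smallest measured ratios and are not confined to acinar cells as markers. Dmbt1, a scavenger receptor protein of mucosal surfaces and ducts, measured 83.7 and 150 on K289R 1 and 3. Of the other K289R arrays, K289R 5 stood at 42.5, whereas WT lay between 9.18 and 13.8. On K289R 5 the duct markers Krt19 (35.3) and Sox9 (124) were also the highest of the 12 arrays. Over all 14 measured duct genes the mean log2 intensity was also highest on K289R 5, by a small margin. It was 6.69 there, 6.59 and 6.47 on K289R 1 and 3, and 6.52 to 6.68 in WT. The summed intensity of the duct genes, to which bright genes contribute most, was highest on WT 3. K289R 5 also had the highest mean log2 intensity of the stroma list (6.25) and the mesothelium list (5.17). The part of duct cells in the Dmbt1 value was not tested. Tff2, a trefoil peptide of mucus, measured 43.2 and 50.5, with 19.2 to 21.8 on the other K289R arrays and 17.7 to 26.4 in WT. Among rows of at least 30 on both arrays, the one nearest below the fold was the fatty acid-binding protein Fabp4 at 1.42-fold. Mrpl22 at 1.26-fold and Cd34 at 1.26-fold followed. Between Fabp4 and Pnliprp2, with at least 4.53-fold, lay 4 member rows, so moving the threshold changed the number of members little.

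Other acinar genes were past the fold but too dim for the rule. These were Gm5409 (24.4 and 21.7 on K289R 1 and 3, at most 8.22 elsewhere), Try4 (12.5 and 10.8, at most 4.61 elsewhere) and the pancreatic disulphide isomerase Pdia2 (19.3 and 31.5, at most 11.0 elsewhere). No other named row was in this position. Over the 5 acinar lists, 23 of 64 measured genes were members: 11 of 18 proteases, 5 of 5 lipases and cofactors, 1 of 5 other enzymes and 6 of 17 granule and regenerating proteins. By these lists, members were enzymes, their cofactors, and granule or regenerating proteins. Dmbt1 and Tff2, on the granule list, are not confined to acinar cells as markers.

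None of 19 acinar transcription factors, receptors and channels was a member, and on none of them did both arrays exceed the other 10. Ptf1a measured 10.4 and 11.3 on K289R 1 and 3, against 9.67 to 12.6 in WT. Rbpjl measured 18.03 and 24.6, against 20.1 to 23.0 in WT, and Bhlha15, a factor that matures secretory cells, 23.0 and 23.7, against 19.5 to 43.4 in WT. Nr5a2 measured 293 and 323, against 268 to 335 in WT. Xbp1, which expands the secretory apparatus, measured 806 and 808 on K289R 1 and 3, 832 to 909 on the other K289R arrays and 960 to 1412 in WT. Its log2 difference between K289R and WT was -0.51 with all arrays (limma adjusted p = 0.00548) and -0.47 without K289R 1 and 3 (limma adjusted p = 0.0560). Likewise none of 24 genes of the endoplasmic reticulum and secretory machinery was a member. Their mean log2 intensity was 9.67 and 9.65 on K289R 1 and 3, and 9.58 to 10.08 in WT. Such genes, like Nr5a2 and Xbp1, were bright on every array, so a small addition would not reach 1.5-fold. Ptf1a and Rbpjl lay below the array medians on every array, where signal cannot be told from background. Nothing is therefore read from these absences.

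Markers of most other cell types of the pancreas and of neighbouring organs were not higher on both arrays. Of 25 islet genes none was higher on both arrays than on the other 10. Insulin (Ins2) measured 18.2 and 27.6 on K289R 1 and 3, 17.9 to 23.6 on the other K289R arrays and 17.98 to 21.2 in WT. Glucagon (Gcg) measured 12.7 and 14.7, against 9.82 to 14.8 in WT. Both Ins2 and Gcg lay near or below the array medians, where signal cannot be told from background. Of 14 duct genes none was higher on both arrays, and Krt19 measured 28.0 and 30.3, against 23.5 to 29.7 in WT. The same count was 0 of 11 for stomach, 0 of 10 for salivary glands, 0 of 8 for mesothelium, 0 of 8 for kidney, 0 of 10 for B and plasma cells and 0 of 9 for T cells. Most of these lists were dim on average. Mean log2 intensities on K289R 1 were 4.42 for stomach, 3.75 for salivary glands and 4.16 for kidney. They were 3.90 for B and plasma cells and 4.24 for T cells. The 0 counts of these lists therefore do not show that such cells were absent. In the small intestine list it was 1 of 14, the exception being Zg16, which the acinar list also holds. Lactase (Lct), an enzyme of the gut lining, measured 18.3 and 17.5 on K289R 1 and 3, against 20.2 to 29.1 in WT. In the stroma list it was 1 of 12, the matrix protein Lum.

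**Figure D2:**
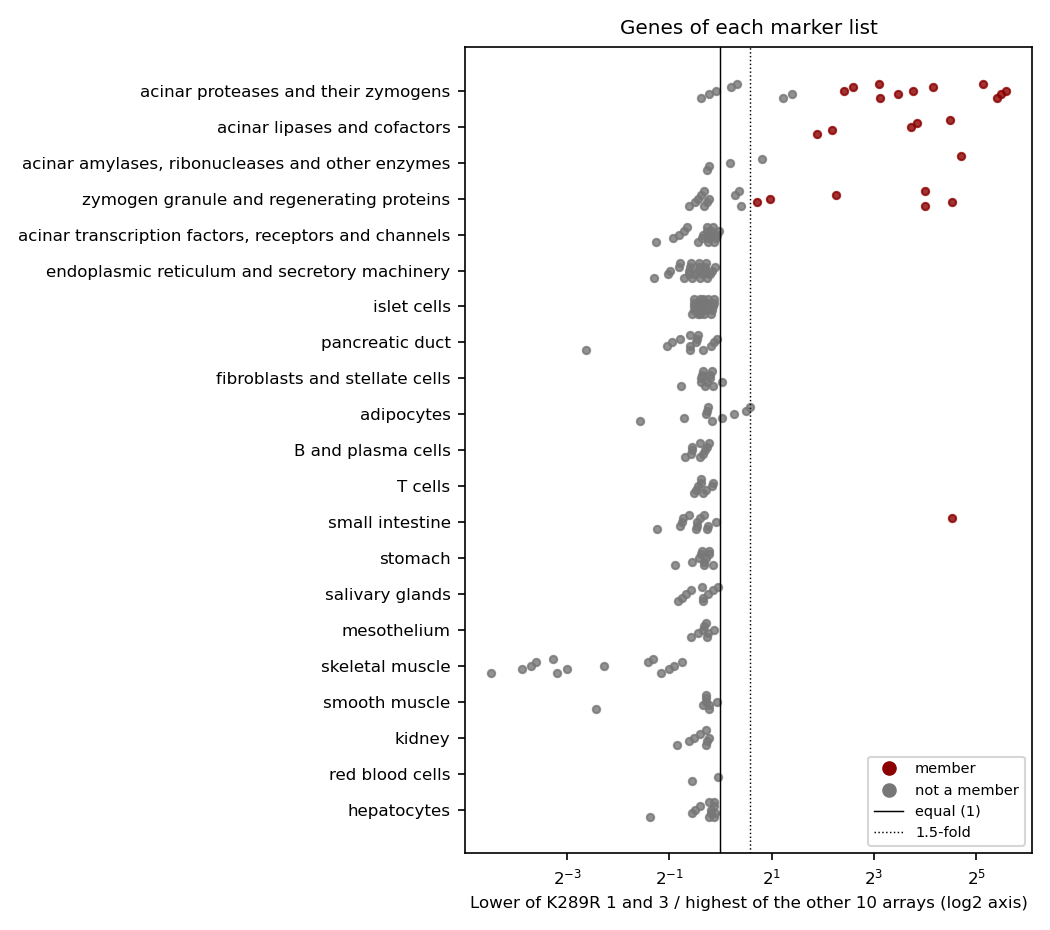
Lower value of K289R 1 and 3 over the highest of the other 10 arrays (log2 axis), 1 point per measured gene, for the 21 marker lists. Members are dark red, the solid line marks equal values and the dotted line 1.5-fold. Dark red points make up 11 of 18 acinar proteases, 5 of 5 lipases and cofactors, 1 of 5 other enzymes and 6 of 17 granule proteins, the dark red point in the small intestine list is Zg16, and the islet, duct and hepatocyte genes lie left of the solid line.

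The adipocyte list moved partly with the members. Its mean log2 intensity over 10 genes was 6.34 on K289R 1 and 6.21 on K289R 3, with 5.76 to 5.98 on the other K289R arrays and 5.59 to 6.07 in WT. The summed intensity of the 10 genes was not raised in this way. However, it is set mostly by the bright gene Car3, with a mean log2 intensity of 12.5 in K289R and 12.3 in WT. The sum therefore says little of the other adipocyte genes. It was 6598 and 5785 on K289R 1 and 3, with 6166 to 6852 on the other K289R arrays and 4302 to 6425 in WT. Both arrays exceeded all others for 4 of the 10 genes. Fabp4 measured 90.0 and 71.1, with 31.7 to 41.7 on the other K289R arrays and 26.3 to 50.1 in WT. Adiponectin (Adipoq) measured 16.4 and 13.9 and at most 9.40 elsewhere, Retn 54.4 and 55.1 and at most 45.1, and Cidec 54.4 and 48.5 and at most 47.4. Adipoq lay below the array medians on every array, where signal cannot be told from background. For Retn the log2 difference between K289R and WT was 0.47 with all arrays (limma adjusted p = 0.0364). Without K289R 1 and 3 it was 0.34 (limma adjusted p = 0.202). Unlike the enzymes, adipocyte genes were not higher on K289R 3 than on K289R 1 as a group. Skeletal muscle transcripts were high on K289R 3 but not on K289R 1: Acta1 measured 288.9 on K289R 3 and 54.8 on K289R 1, with 45.1 to 66.8 on the other K289R arrays, and reached 672 on WT 1. The part of these cell types in the member values was not tested.

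The excess of each member over the median of the other 10 arrays was compared between the 2 arrays. For 22 of the 23 genes the value was higher on K289R 3. The excess on K289R 3 was a median of 1.54 times that on K289R 1, with a range of 0.88 to 2.58. Across the 23 genes the log2 excess on the 2 arrays correlated with Pearson's r = 0.977, a description over genes that share the same 2 arrays. The log2 ratio of the 2 excesses had an SD of 0.33 across genes, whereas the log2 excess on K289R 1 had an SD of 1.505. Rows high on 1 of the arrays alone, such as Prss3, could not become members, so this likeness is partly set by the rule. Gp2 (2.58), Pnliprp1 (2.06) and Cpb1 (2.01) had the highest ratios. The lowest were those of Pla2g1b (0.88) and, among the rows with several genes, of the second trypsin row (0.49).

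**Figure D3:**
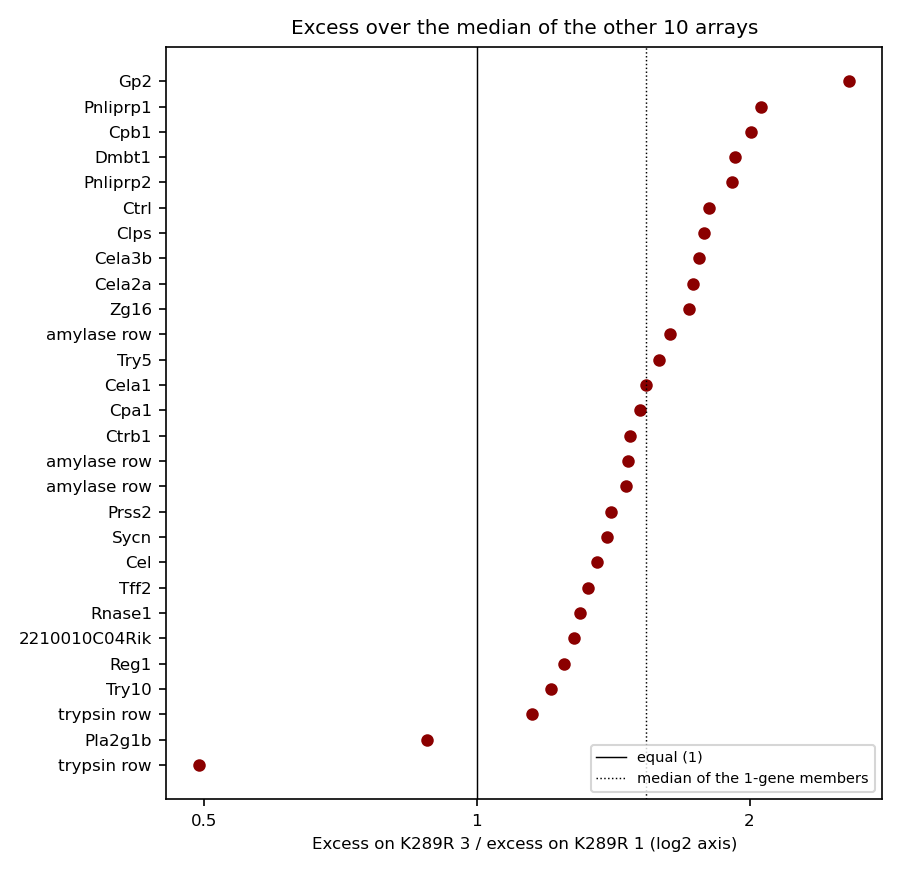
Excess intensity on K289R 3 over that on K289R 1 (log2 axis), each measured above the median of the other 10 arrays, for the 23 genes and the rows with several genes. The dotted line is the median of the 23 genes (1.54), and the genes lie between 0.88 and 2.58, with Pla2g1b and 1 trypsin row left of equality.

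The comparison of the genotypes, K289R against WT, was fitted on all 19938 genes with limma. It called 0.572% of genes changed at an adjusted p under 0.05, and 0 of the 23 members. Without adjustment, 3 of the 23 and 2399 of the 19938 genes had a p under 0.05. The rule used these arrays, so nothing is read from these counts. With all 12 arrays the 23 log2 differences ran from 0.39 (Tff2) to 1.98 (Cpa1), with a median of 1.48, whereas the median over all genes was -0.01. For Cpa1 the mean log2 intensity was 6.74 in K289R and 4.75 in WT, and the 95% confidence interval of the difference ran from -0.14 to 4.11.

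Without K289R 1 and 3, with 4 K289R arrays against 6 WT arrays, the differences of the members lay around 0. They ran from -0.18 (Ctrl) to 0.50 (Dmbt1) with a median of -0.01, and 15 of the 23 were negative. Limma called 0.376% of all genes and again 0 of the 23 members, 1 of which had an unadjusted p under 0.05, as had 1761 of the 19938 genes (8.83%). The interval of Cpa1 then ran from -0.20 to 0.12, and that of Cpb1 from -0.28 to 0.07. The rule chose the members for being high on the 2 arrays left out, so this fall was set in advance. For 15 of the 23 genes the difference was positive with all arrays and negative without these 2, for Reg1 at only -7.8e-05. The median over all genes was also negative (-0.0053). Nothing is read from these signs. For Dmbt1, high on K289R 5, the interval ran from -0.12 to 1.13.

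**Figure D4:**
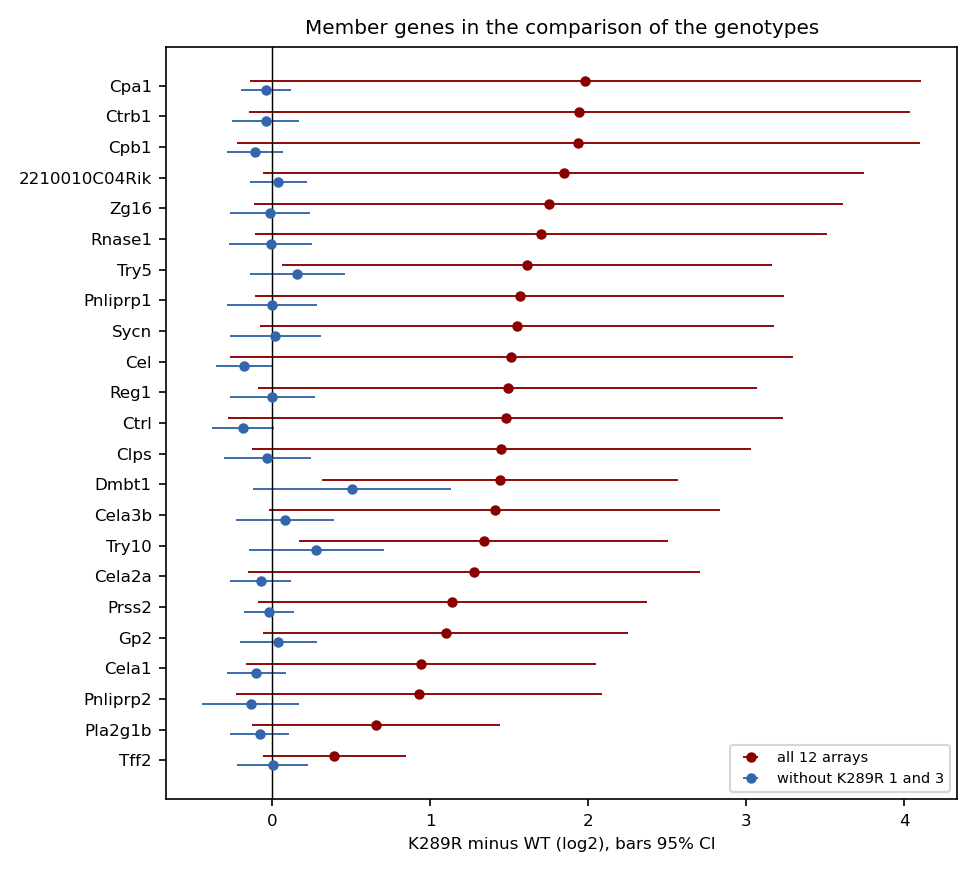
Log2 difference, K289R minus WT, of the 23 genes with 95% confidence intervals, with all 12 arrays (red) and without K289R 1 and 3 (blue). Red points lie between 0.39 and 1.98 with wide intervals, and blue points between -0.18 and 0.50.

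The 23 genes lie on 11 chromosomes, by the RefSeq gene table. Chromosome 6 holds 6 of them, among them the trypsin genes, of which Try5 and Try10 are next to each other. Pnliprp1 and Pnliprp2 on chromosome 19 are likewise adjacent, and the other neighbouring members are separated by at least 1 protein-coding gene. By their identity, the member transcripts are mostly those of the exocrine pancreas, while Zg16, Dmbt1 and Tff2 are not confined to it. On both arrays above the other 10 were 0 of 25 islet, 0 of 14 duct and 0 of 10 salivary genes, 1 of 14 small intestine genes (Zg16) and 4 of 10 adipocyte genes. The islet and salivary genes were dim on average, with mean log2 intensities of 4.42 and 3.75 on K289R 1. Their 0 counts therefore do not show that such cells were absent. In bulk tissue, pancreatic tissue in the sample and transcription in liver cells cannot be told apart, nor can more cells of a type and more RNA per cell.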

How the data were processed

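Liver RNA of 12 mice was hybridised to Affymetrix gene arrays, 1 per mouse, 6 K289R and 6 WT. The deposited values are linear intensities, 1 per probe set, made with Affymetrix Expression Console per the submitters' processing notes. Version, summarization and normalization were not given in the sources used here. Of 35556 rows, 21789 list 1 gene symbol in the platform annotation (21698 matched RefSeq GRCm38.p6 by gene ID), 1621 several and 12146 none. Log2 was taken without a pseudocount. A gene with over 1 probe set was represented by the one with the highest mean log2 value. K289R was compared with WT by limma 3.58.1 (R 4.3.3; lmFit, eBayes, no covariates), with Benjamini-Hochberg adjustment over 19938 genes and a threshold of 0.05. Members and marker lists were chosen with earlier results of these arrays known. Genes named were the markers, all members, rows next to the thresholds, and list genes and cell type markers. Other thresholds, scalings, variance models and arrays left out were tried. The procedures were tested on simulated data. Probe sets without a listed gene were not named. Figures were drawn with matplotlib 3.10.9.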

Additional observations from a re-analysis of the deposited data

Results flagged for a closer look

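Of the rows with no gene listed in the annotation, which the rule leaves out, 4 met the same thresholds on K289R 1 and K289R 3. Probe set 10464298 measured 261 on the lower of these arrays, against at most 16.5 on the other 10. Probe set 10537014 measured 142 on the lower of the pair, against at most 10.1 on the others. Probe set 10552546 measured 87.8, against at most 35.4. Probe set 10454731 measured 810, against at most 369, and unlike the members it varied widely among the others, from 87.3 to 357 on the other K289R arrays and from 131 to 369 in WT.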

How the results depend on the processing

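The number of member rows was 31, and 29 at a fold of 2, 32 at a fold of 1.3, 29 at a level of 50 and 34 with no minimum level. It was 31 with equal array medians and with quantile normalization. Leaving out 1 array gave 31 to 44, the highest without K289R 1, when K289R 3 alone decided. Chosen after the data were examined, counting rows with 1 symbol gave 23, adding rows with no symbol 35, and counting identical rows once 28. In the genotype comparison 96 genes were higher and 18 lower. Fewer were higher without K289R 1 and 3 together (62), a setting that also has fewer arrays, and more were lower with quantile normalization (29) and with dim genes left out (31); the cause was not tested. Leaving out 1 array gave 66 to 129 higher and 12 to 30 lower genes, the 30 without K289R 6. With dim genes left out 9 of the 23 members stayed in the test, passing through the arrays on which they were high. Members called were 0 under every setting tried. Without K289R 1 and 3 the log2 difference turned negative for 15 members: Ctrl (-0.18), Cel (-0.18), Pnliprp2 (-0.14), Cpb1 (-0.11), Cela1 (-0.10), Pla2g1b (-0.080), Cela2a (-0.074), Ctrb1 (-0.042), Cpa1 (-0.039), Clps (-0.031), Prss2 (-0.022), Zg16 (-0.011), Rnase1 (-0.010), Pnliprp1 (-0.0013) and Reg1 (-7.8e-05). The rule chose the members on these 2 arrays, so nothing is read from the changed signs. The other 408 member differences under alternatives kept their sign. Replicate numbers name different mice: deviations of same-numbered arrays correlated from -0.23 to 0.23, over 0.1 in 2 of 6 pairs, and 1 of 6 K289R arrays correlated best with its own number. With the replicate number as a block 94 genes were higher, 17 lower and 0 members called. Detection calls per probe set were not used here.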

Other observations

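Beyond the members, rows that met the thresholds on 1 of the 2 arrays, whatever the other showed, were few. On K289R 1 alone there were 6 such rows: Acot1 (111 on K289R 1), Fabp4 (90.0), Slc34a2 (329), Gm5771 (63.8), Prss3 (72.6) and Mid1ip1 (419), against at most 73.3, 50.1, 195, 32.8, 14.5 and 264 on the arrays outside the pair. On K289R 3 alone there were 13, of which 1 was on an acinar list (Pdia2, 31.5). Among the others were the phosphatidate phosphatase Lpin1, at 865 on K289R 3 and at most 448 outside the pair, and the lysolipid transporter Mfsd2a, at 265 and at most 169. The muscle genes Myh8 (82.0, at most 24.6) and Actc1 (83.2, at most 52.0) were also in this group. Genes were named here after their values were seen.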
